A study of Mus musculus with 6 samples.

Results

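Type I interferon-stimulated genes are the antiviral programme that a cell switches on when its interferon receptor is engaged. A list of 39 such genes was followed by gene symbol in the lung mRNA counts of silicotic and control mice. All 39 were among the 17973 mRNAs of the table, and all 39 passed the filter on low counts that left 15808 mRNAs for testing. The silicosis group held 3 libraries, N129, N136 and N138, from lungs of C57BL/6 mice given silica once by the intratracheal route, at a dose of 8 mg carried in 40 µL of saline. The control group held 3 libraries, C7, C8 and C9, from C57BL/6 lungs that the series text describes as given sterile saline. Lungs of both groups were frozen after 90 days, and neither age nor sex of the animals is stated. No genotype or transgene is named for either group, and 1 instilled dose stands in for the long inhalation of dust behind the human disease. Nothing states that each library is a different animal, so every p-value here reflects only the variation among these samples, which may be technical.

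Type I interferons (the alpha, beta and related ligands) bind a receptor made of IFNAR1 and IFNAR2, whose kinases JAK1 and TYK2 phosphorylate STAT proteins, among them STAT2. These join IRF9, and the complex binds interferon-stimulated response elements (ISREs) in the promoters of target genes. The products sense viral nucleic acid, degrade RNA, block translation, alter membranes and feed back on the pathway. In the lung, epithelium, endothelium, macrophages and lymphocytes can all mount the response.

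Levels are normalised CPM, a gene's count per 1000000 counts of its library after TMM scaling. Fold changes are log2 values of silicosis over control with their standard error (SE), and a gene is said to rise or fall only at an edgeR quasi-likelihood adjusted p under 0.05 over all tested mRNAs. The libraries held between 33698920 and 44000748 mRNA counts. The lung surfactant and alveolar type 2 genes Sftpc, Sftpa1, Sftpb and Lamp3 summed to between 12138 and 18446 CPM in silicosis and between 13719 and 15949.8 CPM in control libraries. In whole lung, a change in how many cells of a type there are and a change in RNA per cell cannot be told apart. Silicosis library N138 stood apart from N129 and N136 in these genes: it was the lowest of the 3 in 37 of the 39, against 37.1% of all tested mRNAs, and counts without it are given after the genes.

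Of the 39 interferon-stimulated genes, 21 rose, 1 fell and 17 did not pass. These are 53.8% and 2.56% of the list, against 15.3% higher and 16.5% lower of all tested mRNAs by the same rule. The median log2 fold change was 0.49 over the 39 and 0.025 over all tested mRNAs. By at least 2-fold, 12 genes rose and 1 fell, against 5.39% and 3.03% of all tested mRNAs. With no filter on low counts 20 of the 39 rose, against 12.9% of all mRNAs. In 21 of the 39 genes every silicosis library lay above every control library, against 23.7% of all tested mRNAs, and in 2 every silicosis library lay below, against 24.0%.

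**Figure D1:**
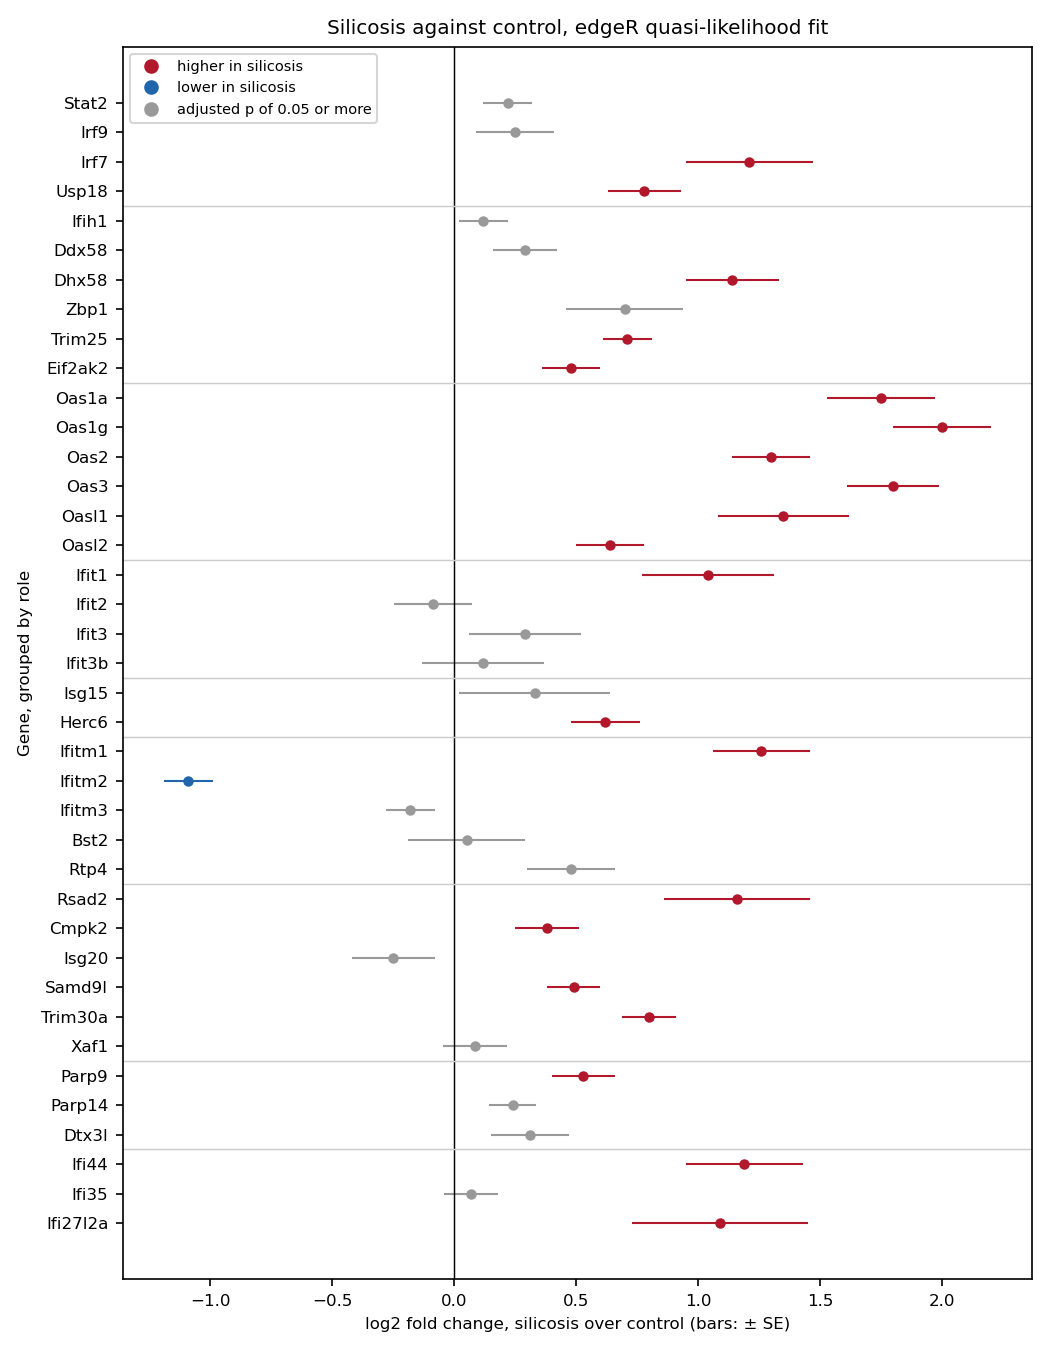
Log2 fold change of each of the 39 genes, silicosis over control, with bars of ± SE from the edgeR fit; grey lines separate the role groups. The 6 OAS genes lie to the right of 0, between 0.64 and 2.0, and Ifitm2 lies at -1.09.

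The ISRE is the element through which the STAT and IRF9 complex is known to act. Promoter windows of RefSeq (build GRCm38.p6, from 250 bases before to 50 after each gene's start) were found for 31 of the 39. The ISRE core, spelled GAAA, any 2 bases, GAAA and searched on both strands, was present in 16 of the 31 genes (51.6%), against 1079 of 27025 genes in the whole promoter table (3.99%). The interferon-gamma activation site, searched as TTCNNNGAA, which reads the same on both strands, was in 7 of the 31 (22.6%) and in 9.55% of all genes. Of genes that rose, 7 of 16 with a window held the ISRE core, and of genes that did not, 9 of 15. These counts describe the windows and were not tested. A match does not show a bound site, and its absence says only that these letters are not in this window.

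The following windows are shown because they belong to genes that went different ways in silicosis. Capitals mark every base inside a match to the ISRE core on either strand (or to its reverse complement, where the match is on the other strand), and overlapping matches run together. Oas1a lies at chr5:120907476-120907775 (minus strand), Oas1g at chr5:120887564-120887863 (minus strand), Ifit1 at chr19:34640639-34640938 (plus strand), Ifit3 at chr19:34583279-34583578 (plus strand), Isg15 at chr4:156200769-156201068 (minus strand), Ifitm1 at chr7:140967826-140968125 (plus strand) and Ifitm2 at chr7:140955912-140956211 (minus strand), all in GRCm38.p6 and written 5′ to 3′ along the gene. Oas1a, Oas1g and Ifit1 rose and hold 2 matches each.
Oas1a: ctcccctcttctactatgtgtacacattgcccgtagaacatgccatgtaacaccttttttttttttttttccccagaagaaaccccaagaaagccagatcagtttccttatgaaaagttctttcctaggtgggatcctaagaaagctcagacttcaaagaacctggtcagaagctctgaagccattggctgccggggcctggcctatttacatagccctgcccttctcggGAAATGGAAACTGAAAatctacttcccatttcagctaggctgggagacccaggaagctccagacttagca
Oas1g: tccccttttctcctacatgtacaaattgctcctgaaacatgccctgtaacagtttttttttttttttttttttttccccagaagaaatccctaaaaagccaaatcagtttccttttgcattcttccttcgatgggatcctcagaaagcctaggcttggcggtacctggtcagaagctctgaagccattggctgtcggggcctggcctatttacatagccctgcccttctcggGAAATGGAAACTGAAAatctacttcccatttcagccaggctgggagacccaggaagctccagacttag
Ifit1: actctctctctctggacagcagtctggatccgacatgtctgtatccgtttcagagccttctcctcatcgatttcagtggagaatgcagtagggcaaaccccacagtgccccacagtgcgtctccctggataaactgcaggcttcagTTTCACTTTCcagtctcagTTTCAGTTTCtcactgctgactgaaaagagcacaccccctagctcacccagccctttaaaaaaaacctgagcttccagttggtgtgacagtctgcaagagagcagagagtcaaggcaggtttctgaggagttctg
Ifit3 and Isg15 did not pass the test and hold 2 and 3 matches.
Ifit3: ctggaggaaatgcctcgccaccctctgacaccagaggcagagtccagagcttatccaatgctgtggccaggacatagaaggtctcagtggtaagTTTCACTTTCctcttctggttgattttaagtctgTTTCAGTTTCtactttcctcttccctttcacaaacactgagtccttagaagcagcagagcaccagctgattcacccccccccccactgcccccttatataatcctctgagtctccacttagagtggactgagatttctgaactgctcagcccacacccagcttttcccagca
Isg15: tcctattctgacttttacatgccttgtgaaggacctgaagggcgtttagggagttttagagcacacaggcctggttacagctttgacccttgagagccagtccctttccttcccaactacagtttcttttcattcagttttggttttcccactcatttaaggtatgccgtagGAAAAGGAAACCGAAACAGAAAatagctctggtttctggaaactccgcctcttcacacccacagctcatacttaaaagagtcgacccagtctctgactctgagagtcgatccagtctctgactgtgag
Ifitm1 rose with 0 matches in its window, and Ifitm2 fell with 1.
Ifitm1: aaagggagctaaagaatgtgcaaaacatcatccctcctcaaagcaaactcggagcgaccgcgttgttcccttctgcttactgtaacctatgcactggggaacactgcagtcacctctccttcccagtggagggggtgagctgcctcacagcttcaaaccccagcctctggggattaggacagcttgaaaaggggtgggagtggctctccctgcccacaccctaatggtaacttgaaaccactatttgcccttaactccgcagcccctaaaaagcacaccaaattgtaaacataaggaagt
Ifitm2: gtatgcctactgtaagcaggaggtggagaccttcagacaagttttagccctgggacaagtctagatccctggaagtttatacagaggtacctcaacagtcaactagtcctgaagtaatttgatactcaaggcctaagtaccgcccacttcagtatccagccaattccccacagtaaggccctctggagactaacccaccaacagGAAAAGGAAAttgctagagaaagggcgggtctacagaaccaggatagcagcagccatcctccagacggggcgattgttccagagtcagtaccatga
The Oas1a and Oas1g windows carry the same block of 2 overlapping matches, with the nearer one beginning at -14 and -12 relative to the start, and the Ifit1 and Ifit3 windows both carry 2 separate matches on the other strand.

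The OAS family was the group of the list in which every gene rose, 6 of 6, against 15.3% of all tested mRNAs. Its median log2 fold change was 1.55. OAS1, OAS2 and OAS3 proteins make 2′-5′ oligoadenylates on double-stranded RNA, which activate RNase L to degrade RNA. Oas3 had 41.1, 44.8 and 27.9 CPM in silicosis libraries N129, N136 and N138, against 9.51, 11.0 and 12.3 CPM in control libraries C7, C8 and C9 (log2 fold change 1.80, SE 0.19, edgeR adjusted p = 0.000235). Oas2 had 50.1, 34.6 and 35.5 CPM in silicosis, against 15.2, 15.3 and 18.3 CPM in control (log2 fold change 1.30, SE 0.16, edgeR adjusted p = 0.000563). For both genes the lowest silicosis library stood clear of the highest control library, and N138 was not the lowest for Oas2.

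Oas1a and Oas1g, mouse copies of the OAS1 gene, had the other steep rises. Oas1a had 30.5, 40.7 and 20.9 CPM in silicosis, against 9.86, 8.40 and 9.11 CPM in control (log2 fold change 1.75, SE 0.22, edgeR adjusted p = 0.000593). Oas1g had 9.28, 8.97 and 7.37 CPM in silicosis, against 2.21, 2.39 and 1.80 CPM in control (log2 fold change 2.0, SE 0.20, edgeR adjusted p = 0.000214). Of their 50-base stretches, 57.6% in Oas1a and 55.2% in Oas1g also occur in transcripts of other genes, which leaves the split of reads uncertain. The same holds for no other OAS gene of the list: Oas2, Oas3, Oasl1 and Oasl2 share at most 0.749%.

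The OAS-like genes rose as well. Oasl1, whose product in mice restrains translation of Irf7, had 11.7, 11.8 and 6.93 CPM in silicosis, against 3.75, 3.04 and 5.19 CPM in control (log2 fold change 1.35, SE 0.27, edgeR adjusted p = 0.00541). Oasl2 had 105, 98.4 and 75.7 CPM in silicosis, against 61.5, 52.0 and 65.8 CPM in control (log2 fold change 0.64, SE 0.14, edgeR adjusted p = 0.00845). The groups did not overlap for either, and N138 was the lowest silicosis library for both.

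**Figure D2:**
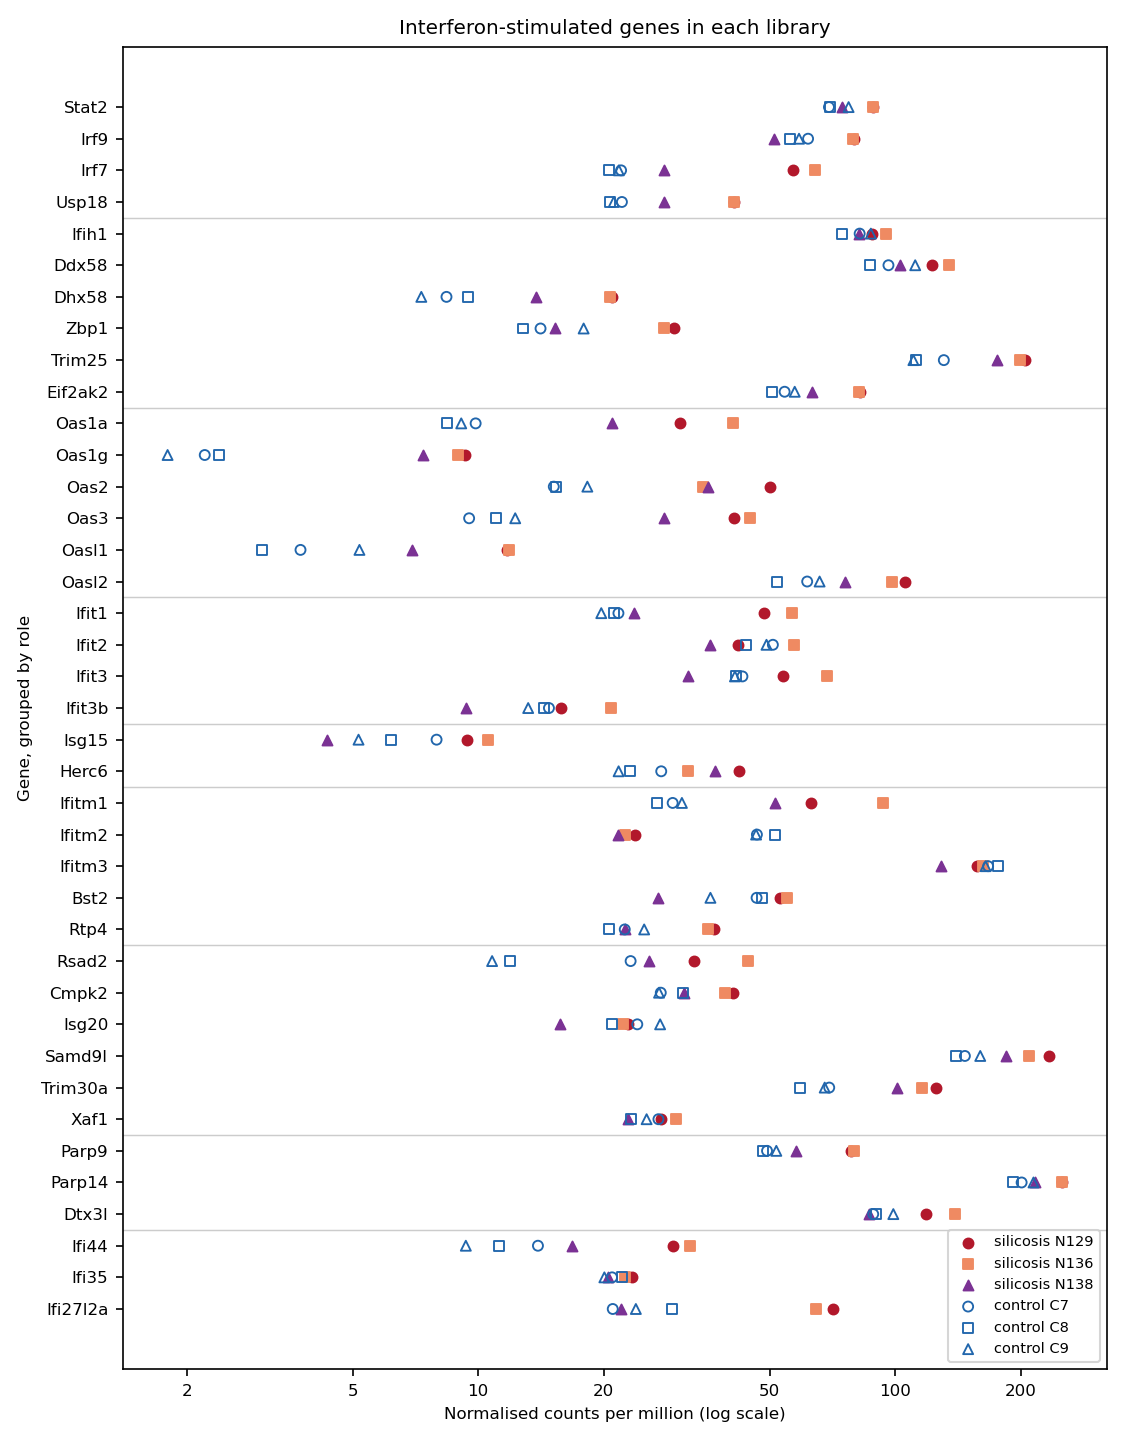
Normalised CPM of the 39 genes on a log scale, 1 row per gene, with filled symbols for the 3 silicosis and open symbols for the 3 control libraries; grey lines separate the role groups. N138 (triangle) is the lowest silicosis library in 37 of the 39 rows.

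In the IFIT family 1 of 4 genes rose. IFIT proteins bind viral RNA ends and the translation factor eIF3. Ifit1 had 48.6, 56.6 and 23.6 CPM in silicosis libraries N129, N136 and N138, against 21.7, 21.2 and 19.7 CPM in control (log2 fold change 1.04, SE 0.27, edgeR adjusted p = 0.0165). The groups did not overlap, but N138 lay close to the controls, and the call ended without C8, C9, N129 or N136, with edgeR adjusted p of 0.0513, 0.0600, 0.0545 and 0.0534. Ifit2 had 42.0, 57.2 and 36 CPM in silicosis, against 50.9, 43.7 and 49.1 CPM in control, and its fold change of -0.087 (SE 0.16) turned to 0.053 without N138. Ifit3 had 53.7, 68.5 and 31.8 CPM in silicosis, against 43.0, 41.6 and 41.3 CPM in control (log2 fold change 0.29, SE 0.23, edgeR adjusted p = 0.356). In Ifit3, N129 and N136 lay above the controls and N138 below them. Ifit3b, its near copy, gave 15.8, 20.8 and 9.35 CPM in silicosis and 14.8, 14.4 and 13.2 CPM in control. Ifit3 and Ifit3b share 51.5% and 45.0% of their windows with other transcripts.

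Within a library, Ifit1 can be set beside 2 of its relatives without any scaling between libraries. Its count divided by that of Ifit2 was 1.16, 0.989 and 0.656 in N129, N136 and N138, against 0.426, 0.484 and 0.402 in C7, C8 and C9. Divided by Ifit3 it was 0.904, 0.826 and 0.743 in silicosis, against 0.504, 0.509 and 0.478 in control. Neither ratio overlapped between the groups, N138 included. These pairs were chosen because Ifit1 was seen to rise and the others not. The ratios are therefore a description given without a p-value, and Ifit3b was not compared in this way.

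Of the 5 genes for membrane proteins in the list, 1 rose and 1 fell, against 15.3% higher and 16.5% lower of all tested mRNAs. With 5 genes, these counts do not set the group apart from all tested mRNAs. Interferon-induced transmembrane proteins sit in plasma and endosomal membranes and hinder the entry of enveloped viruses. Ifitm1 had 62.7, 93.6 and 51.5 CPM in silicosis, against 29.3, 26.9 and 30.8 CPM in control (log2 fold change 1.26, SE 0.20, edgeR adjusted p = 0.00168). Ifitm2 had 23.7, 22.4 and 21.7 CPM in silicosis, against 46.6, 51.5 and 46.4 CPM in control (log2 fold change -1.09, SE 0.0991, edgeR adjusted p = 0.000129). These were opposite changes without overlap between groups in either gene, and Ifitm2 was the gene of the list that fell. It shares 48.4% of its windows with other transcripts, so its counts are uncertain. Ifitm3, the highest of the 39 per kilobase of exon, had 157, 162 and 128.7 CPM in silicosis, against 167, 176 and 165 CPM in control. All 3 silicosis libraries of Ifitm3 lay below the controls, yet the difference of -0.18 (SE 0.10) did not pass (edgeR adjusted p = 0.219).

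Ifitm2, Ifitm1 and Ifitm3 are neighbours in the RefSeq order of genes, with no other protein-coding gene between them. The count of Ifitm1 over that of Ifitm2 was 2.64, 4.17 and 2.38 in N129, N136 and N138, against 0.628, 0.523 and 0.664 in C7, C8 and C9. Over Ifitm3 it was 0.400, 0.576 and 0.400 in silicosis, against 0.175, 0.153 and 0.187 in control. That these ratios do not overlap follows from the levels above, since Ifitm1 was higher and Ifitm2 and Ifitm3 lower in all 3 silicosis libraries, and it is no further evidence.

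Tetherin and a receptor transporter complete the membrane group. Bst2, tetherin, which holds budding virions at the cell surface and is also found on plasma cells and plasmacytoid dendritic cells, had 53.0, 54.9 and 27.04 CPM in silicosis, against 46.5, 47.9 and 36.04 CPM in control. Its fold change of 0.051 changed sign under several settings. Rtp4, an interferon-induced receptor transporter, had 36.8, 35.5 and 22.5 CPM in silicosis, against 22.5, 20.6 and 25 CPM in control (log2 fold change 0.48, SE 0.18, edgeR adjusted p = 0.0755). N138 lay within or below the control range for both.

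Among the factors that carry or restrain the signal, Irf7 and Usp18 rose and Stat2 and Irf9 did not pass. Irf7, the factor that drives interferon alpha genes, had 56.9, 64.0 and 27.96 CPM in silicosis, against 22.01, 20.6 and 21.7 CPM in control (log2 fold change 1.21, SE 0.26, edgeR adjusted p = 0.00720). Usp18, which removes ISG15 and blocks the receptor IFNAR2, had 41.1, 41.1 and 27.8 CPM in silicosis, against 22.1, 20.7 and 21.1 CPM in control (log2 fold change 0.78, SE 0.15, edgeR adjusted p = 0.00514). In both genes N129 and N136 were close to each other and N138 stood between them and the controls. Stat2 had 88.3, 88.4 and 74.4 CPM in silicosis, against 69.3, 69.7 and 77.3 CPM in control (log2 fold change 0.22, SE 0.10). Irf9 had 79.6, 79.1 and 51.2 CPM in silicosis, against 61.8, 55.9 and 58.8 CPM in control (log2 fold change 0.25, SE 0.16). Without N138 both passed, with fold changes of 0.29 and 0.43 and edgeR adjusted p of 0.0447 and 0.00937.

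Of 6 genes for nucleic acid sensors and their partners, 3 rose. Dhx58, which encodes LGP2, the regulator of the RIG-I-like receptors, had 20.9, 20.7 and 13.7 CPM in silicosis, against 8.40, 9.45 and 7.31 CPM in control (log2 fold change 1.14, SE 0.19, edgeR adjusted p = 0.00224). Trim25, the ubiquitin ligase that acts on RIG-I, had 204, 199 and 176 CPM in silicosis, against 131, 112 and 111 CPM in control (log2 fold change 0.71, SE 0.10, edgeR adjusted p = 0.00116). Eif2ak2, the RNA-activated kinase PKR, had 82.3, 81.6 and 63.1 CPM in silicosis, against 54.3, 50.6 and 57.4 CPM in control (log2 fold change 0.48, SE 0.12, edgeR adjusted p = 0.0143). The groups did not overlap for these 3, and the Eif2ak2 call ended without C8 (0.0623) or N129 (0.0588).

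The genes for the sensors RIG-I, MDA5 and ZBP1 did not pass. Ddx58, RIG-I, had 122, 134 and 103 CPM in silicosis, against 96.3, 86.9 and 112 CPM in control (log2 fold change 0.29, SE 0.13). Ifih1, MDA5, had 88.0, 95.2 and 81.7 CPM in silicosis, against 82.1, 74.6 and 87.4 CPM in control (log2 fold change 0.12, SE 0.0992). Their groups overlapped. Zbp1, a sensor of Z-form nucleic acid that can trigger necroptosis, had 29.4, 27.9 and 15.3 CPM in silicosis, against 14.1, 12.8 and 17.9 CPM in control, just short of the threshold (log2 fold change 0.70, SE 0.24, edgeR adjusted p = 0.0522). Without N138 its edgeR adjusted p was 0.00237.

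ISG15 is a ubiquitin-like protein joined to other proteins during the response, in mice by the ligase HERC6. Isg15 had 9.41, 10.6 and 4.34 CPM in silicosis, against 7.95, 6.20 and 5.17 CPM in control (log2 fold change 0.33, SE 0.31, edgeR adjusted p = 0.449). N138 was below all 3 controls. Herc6 had 42.2, 31.8 and 37.1 CPM in silicosis, against 27.5, 23.1 and 21.7 CPM in control (log2 fold change 0.62, SE 0.14, edgeR adjusted p = 0.00921), without overlap. It shares 23.9% of its windows with other transcripts.

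In the group of nucleotide and RNA enzymes and restriction factors 4 of 6 genes rose (66.7%, against 15.3% of all tested mRNAs). Rsad2, viperin, which makes a chain-terminating nucleotide, had 33.0, 44.3 and 25.6 CPM in silicosis, against 23.2, 11.9 and 10.8 CPM in control (log2 fold change 1.16, SE 0.30, edgeR adjusted p = 0.0167). C7 came close to N138 without reaching it, and the call ended without C8, C9 or N136 (0.0638, 0.0604 and 0.0585). Cmpk2, a mitochondrial nucleotide kinase next to Rsad2 in the gene order, had 40.7, 39.1 and 31.2 CPM in silicosis, against 27.4, 31.0 and 27.1 CPM in control. Its rise of 0.38 (SE 0.13) was at the threshold (edgeR adjusted p = 0.0481) and ended under 8 of the 12 other settings besides the 2-fold minimum. The steadier rises were those of Trim30a and Samd9l.

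Trim30a, a TRIM protein that restrains inflammatory signalling in mice, had 125, 116 and 101 CPM in silicosis, against 69.4, 59.0 and 67.7 CPM in control (log2 fold change 0.80, SE 0.11, edgeR adjusted p = 0.000873). Samd9l, a restriction factor of poxviruses, had 234, 209 and 184 CPM in silicosis, against 147, 139.9 and 159.8 CPM in control (log2 fold change 0.49, SE 0.11, edgeR adjusted p = 0.00874). Both showed non-overlapping groups with narrow spread. Isg20, an exonuclease, had 22.8, 22.3 and 15.7 CPM in silicosis, against 24.1, 20.9 and 27.3 CPM in control. Xaf1, which promotes apoptosis, had 27.5, 29.9 and 22.9 CPM in silicosis, against 27.1, 23.2 and 25.3 CPM in control. Neither passed, with log2 fold changes of -0.25 (SE 0.17) for Isg20 and 0.086 (SE 0.13) for Xaf1.

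Parp9, Dtx3l and Parp14 lie side by side in the gene order. PARP9 and DTX3L form a complex that modifies proteins with ADP-ribose and ubiquitin, and PARP14 is a related ADP-ribosyltransferase. Parp9 rose, with 78.3, 79.5 and 57.8 CPM in silicosis, against 49.3, 48.2 and 51.9 CPM in control (log2 fold change 0.53, SE 0.13, edgeR adjusted p = 0.0130). That call ended without C8 or N129 (0.0530 each). Parp14 had 251, 250.5 and 216 CPM in silicosis, against 201, 191 and 214 CPM in control, with no overlap but an edgeR adjusted p of 0.0874. Dtx3l had 118, 139 and 86.4 CPM in silicosis, against 88.5, 90.0 and 98.9 CPM in control (log2 fold change 0.31, SE 0.16).

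Of the last 3 genes, Ifi44 and Ifi27l2a rose and Ifi35 did not pass. Ifi44, an interferon-induced protein of the cytoplasm, had 29.4, 32.3 and 16.7 CPM in silicosis, against 13.9, 11.2 and 9.34 CPM in control (log2 fold change 1.19, SE 0.24, edgeR adjusted p = 0.00639). Ifi27l2a, a small hydrophobic protein, had 71.1, 64.4 and 22.01 CPM in silicosis, against 21.02, 29.2 and 23.9 CPM in control (log2 fold change 1.09, SE 0.36, edgeR adjusted p = 0.0459). Ifi27l2a was the gene that rose although its groups overlapped: N138 lay among the controls. Its call ended with DESeq2 (adjusted p = 0.0835), with limma-voom (adjusted p = 0.105) and without any one of C7, C8, C9, N129 or N136 (edgeR adjusted p between 0.0745 and 0.154). Ifi35 had 23.3, 22.5 and 20.5 CPM in silicosis, against 20.9, 22.2 and 20.1 CPM in control.

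The 3 silicosis libraries did not share the response evenly. Relative to the mean of the controls, the median log2 ratio of the 39 genes was 0.65 in N129, 0.68 in N136 and 0.13 in N138, and between -0.06 and 0.014 in the control libraries. The genes in which N138 was not the lowest were Oas2 and Herc6. N138 was above all 3 controls in 21 genes and below all 3 in 11, while N129 was above in 35 and N136 in 36. Of all 15808 tested mRNAs, N138 was above all 3 controls in 6058 and below all 3 in 5682. In the same set N129 was above in 6190 and N136 in 6109. The OAS genes kept a median ratio of 1.15 in N138, against -0.40 for the IFIT genes in that library.

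**Figure D3:**
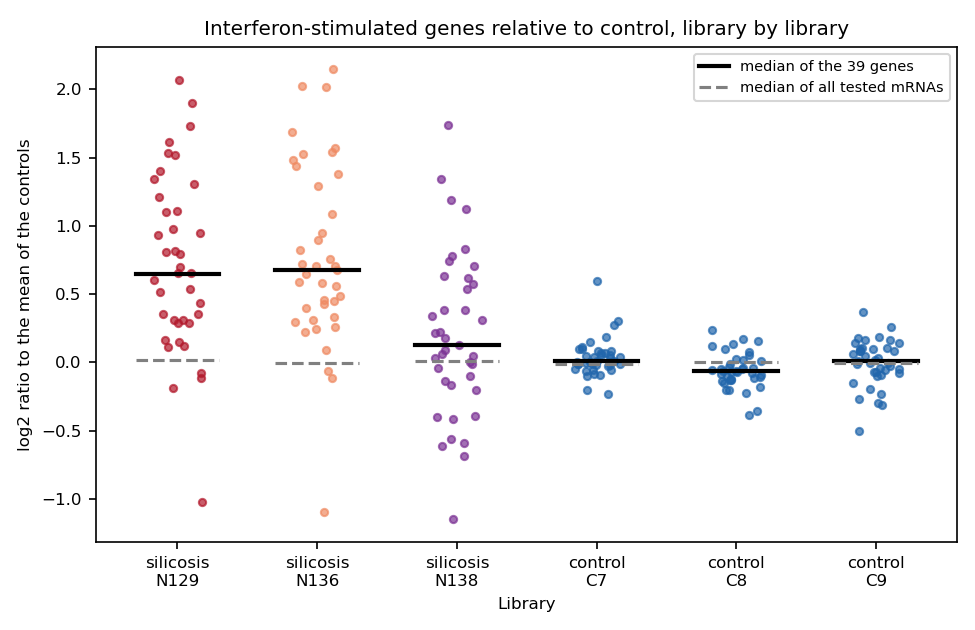
Log2 ratio of each of the 39 genes (points) to the mean of the controls, library by library, with the median of the 39 (black line) and of all tested mRNAs (dashed line). N129 and N136 have medians of 0.65 and 0.68, and N138 of 0.13.

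Without N138, 30 of the 39 genes rose and 1 fell, against 16.2% and 16.5% of all tested mRNAs in that fit. The 9 added genes were Stat2, Irf9, Ddx58, Zbp1, Ifit3, Isg15, Rtp4, Parp14 and Dtx3l. Without C7, C8 or C9, 19, 15 and 17 genes rose, against 10.1%, 10.1% and 11.0% of all tested mRNAs. Without N129 or N136, 16 and 17 rose, against 10.4% and 12.4%. Of these genes, 15 of the 21 were called in each fit that left out a library: the 6 OAS genes, Irf7, Usp18, Dhx58, Trim25, Herc6, Ifitm1, Samd9l, Trim30a and Ifi44. The fall of Ifitm2 was called each time.

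Summed markers of other cell types differed between libraries and, in some lists, between groups. The counts of markers that rose or fell, here and below, stand beside 15.3% higher and 16.5% lower of all tested mRNAs. The 4 T cell markers in the table summed to 95.3, 67.1 and 38.8 CPM in N129, N136 and N138, against 54.1, 56.6 and 76.0 CPM in C7, C8 and C9. The 5 B cell markers summed to 338, 270.3 and 150.4 CPM in silicosis, against 204, 159.9 and 293 CPM in control. Both lists were lowest in N138, and N138 had the lowest silicosis sum in 8 of all 16 marker lists. The 5 neutrophil markers, of which 3 rose, summed to 229, 251 and 356 CPM in silicosis and 84.0, 139 and 149 CPM in control, and were highest in N138. Of plasmacytoid dendritic cell markers, the cells that make most interferon alpha, 0 of 5 rose and 1 fell, with sums from 21.1 to 28.1 CPM in silicosis and from 18.5 to 30.3 CPM in control.

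All 5 markers of lipid-handling macrophages rose, with sums from 1307 to 2178 CPM in silicosis and from 93.2 to 102 CPM in control, and were not lowest in N138. Plasma cell markers, 3 of 4 of which rose, summed to 530.5 to 1279 CPM in silicosis and 223 to 293 CPM in control, lowest of the silicosis libraries in N138. Most of the control sum was Sdc1, with 219, 252 and 191 CPM in C7, C8 and C9, against 306, 381 and 345 CPM in N129, N136 and N138. Jchain had 377, 893 and 184 CPM in silicosis, against 18.2, 40.2 and 31.0 CPM in control. Monocyte markers, 3 of 4 of which rose, summed to 203 to 250.2 CPM in silicosis and 137 to 166 CPM in control. All 4 NK cell markers fell, with sums of 20.2, 23.1 and 16.2 CPM in N129, N136 and N138, against 45.6, 52.5 and 46.3 CPM in C7, C8 and C9, lowest in N138. Of alveolar type 1 markers 3 of 4 fell, with sums from 1142 to 1389.8 CPM in silicosis and from 2427 to 2669 CPM in control, and 4 of 5 endothelial markers fell, with sums from 1767 to 1951 CPM in silicosis and from 3405 to 3824 CPM in control. Acta1, the skeletal muscle actin, had 0.365, 37.9 and 73.1 CPM in N129, N136 and N138, against 0.149, 0.192 and 0.104 CPM in C7, C8 and C9, so N136 and N138 stood far above N129. Acta1 was the 1 of 3 skeletal and heart muscle markers that rose. The others, Myh6 (log2 fold change -0.65, SE 0.46) and Actc1 (-0.63, SE 0.25), did not pass. That list summed to 109 to 193 CPM in silicosis and 94.7 to 277 CPM in control. No marker in the table was at 0 in all libraries. Fibroblast markers were mixed, with 2 of 5 rising and 2 falling. Of alveolar macrophage markers 0 of 5 rose and 2 fell. In the ciliated cell list 2 of 4 fell, in the club cell list 1 of 3 and in the alveolar type 2 list 1 of 4. The part of these cells in the interferon result was not tested.

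**Figure D4:**
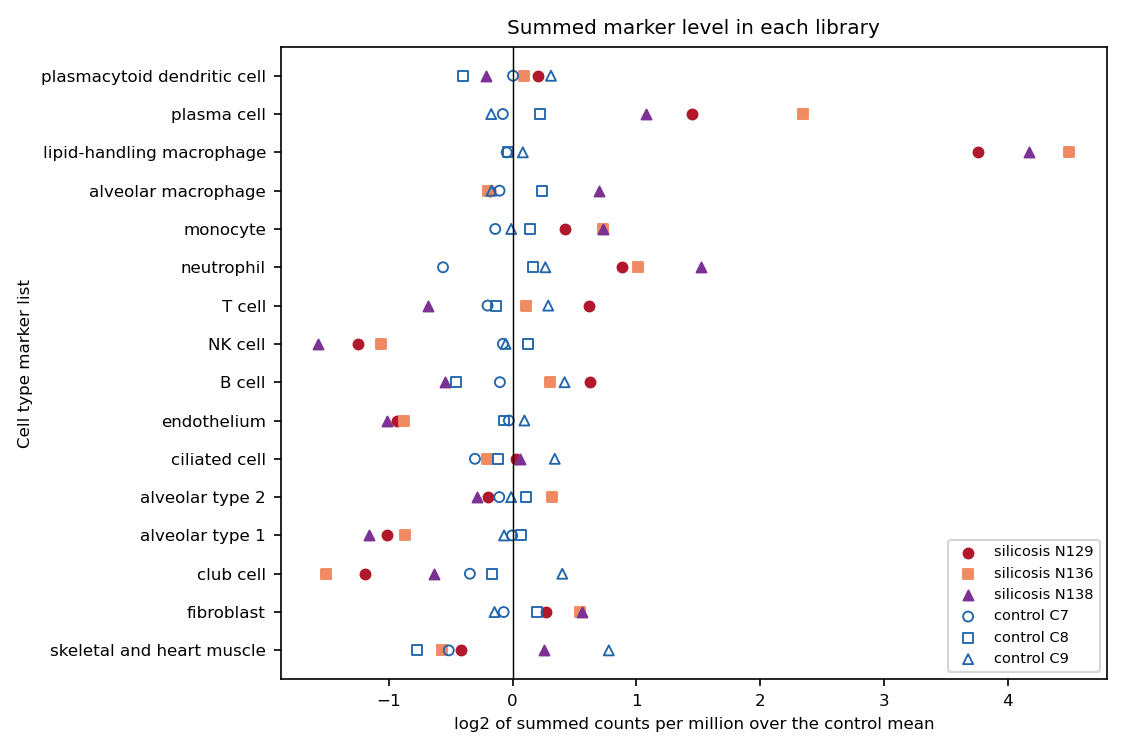
Summed level of each cell type marker list in each library, as log2 of the ratio to the mean of the 3 controls; filled symbols are silicosis and open symbols control libraries. T cell and B cell sums are lowest in N138 (38.8 and 150.4 CPM) and neutrophil sums highest there (356 CPM).

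Of the interferon ligands only Ifnk could be tested. Of 20 type I and type III ligand genes listed, 2 were in the mRNA table and the others were not analysed here. Ifnk, interferon kappa, had 2.30, 2.16 and 4.37 CPM in silicosis, against 2.48, 1.96 and 1.28 CPM in control, and did not pass (log2 fold change 0.62, SE 0.37, edgeR adjusted p = 0.228). It was highest in N138, the library lowest for most of the 39. Ifnz, another type I ligand, had between 0 and 2 counts per library and was not tested.

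Of 6 receptor and kinase genes, 1 rose and 0 fell; that is 16.7% higher, near the 15.3% of all tested mRNAs. Ifnar1, a chain of the type I interferon receptor, had 143, 175 and 159 CPM in silicosis, against 123, 122 and 139.6 CPM in control. It rose by 0.31 on the log2 scale (SE 0.10, edgeR adjusted p = 0.0465), a call that ended under 6 alternatives besides the 2-fold minimum, with edgeR adjusted p from 0.0517 to 0.156. Of 12 genes of DNA and RNA sensing upstream of interferon, adaptors and kinases among them, 5 rose and 1 fell. These are 41.7% and 8.33%, against 15.3% and 16.5% of all tested mRNAs. Tlr7, the endosomal receptor for single-stranded RNA, had 40.0, 46.7 and 47.3 CPM in silicosis, against 21.4, 24.5 and 26.3 CPM in control (log2 fold change 0.89, SE 0.12). Ikbke, a kinase of IRF3 and IRF7, rose by 1.06 (SE 0.17), and Sting1, the adaptor for cytosolic DNA, by 0.94 (SE 0.19). Mavs, the adaptor of RIG-I and MDA5, fell (log2 fold change -0.38, SE 0.0997); it is named because of its value, and the call ended without C9 (edgeR adjusted p = 0.0537).

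Of 6 tested negative regulators, 1 rose, again 16.7% against 15.3% of all tested mRNAs. It was Socs3, an inhibitor of cytokine receptor signalling, which rose by 1.53 (SE 0.16, edgeR adjusted p = 0.000221). Among 41 further interferon-induced genes in the table, 15 rose and 2 fell, with a median of 0.34. These are 36.6% and 4.88%, against 15.3% and 16.5% of all tested mRNAs. Ddx60, a helicase, had 54.2, 50.6 and 52.1 CPM in silicosis, against 22.6, 19.98 and 21.8 CPM in control (log2 fold change 1.29, SE 0.0979, edgeR adjusted p = 6.16e-05). It was as high in N138 as in the other silicosis libraries. Slfn4, a Schlafen gene of myeloid cells, had 103, 62.3 and 132 CPM in silicosis, against 4.67, 8.62 and 7.20 CPM in control (log2 fold change 3.86, SE 0.31), highest in N138. Slfn8 rose by 0.97 (SE 0.15). The genes that fell, Ly6e (-0.50, SE 0.17) and Slfn5 (-0.31, SE 0.10), are named because of their values. Both were at the threshold (edgeR adjusted p = 0.0496 for Ly6e and 0.0474 for Slfn5), and both calls ended without C7, C8, C9, N129 or N138. Slfn4 and Slfn8 share 11.6% and 15.5% of their windows. N138 was the lowest silicosis library in 31 of these 41 genes, against 37.1% of all tested mRNAs.

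Of 20 tested genes of the interferon-gamma axis, 7 rose and 1 fell, against 15.3% higher and 16.5% lower of all tested mRNAs. The median log2 fold change of the 20 was 0.17. Cxcl10, a chemokine for activated T cells induced by both kinds of interferon, had 11.5, 11.2 and 4.87 CPM in silicosis, against 1.71, 1.17 and 1.49 CPM in control (log2 fold change 2.66, SE 0.35, edgeR adjusted p = 0.000694). Cxcl9, the chemokine more closely tied to interferon gamma, had 15.8, 16.5 and 2.14 CPM in silicosis, against 1.66, 1.24 and 1.70 CPM in control (log2 fold change 2.90, SE 0.63), which limma-voom did not call (adjusted p = 0.0802). Ifngr2, a receptor chain, rose by 0.54 (SE 0.12), and Gbp7, named because of its value, fell by 0.51 (SE 0.16). The Gbp7 call ended without C7, C9, N129 or N138, with edgeR adjusted p from 0.0717 to 0.120, and 12.8% of its windows are shared. N138 was the lowest silicosis library in 18 of the 20, against 37.1% of all tested mRNAs. The difference between these lists and the 39 genes was not tested.

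**Figure D5:**
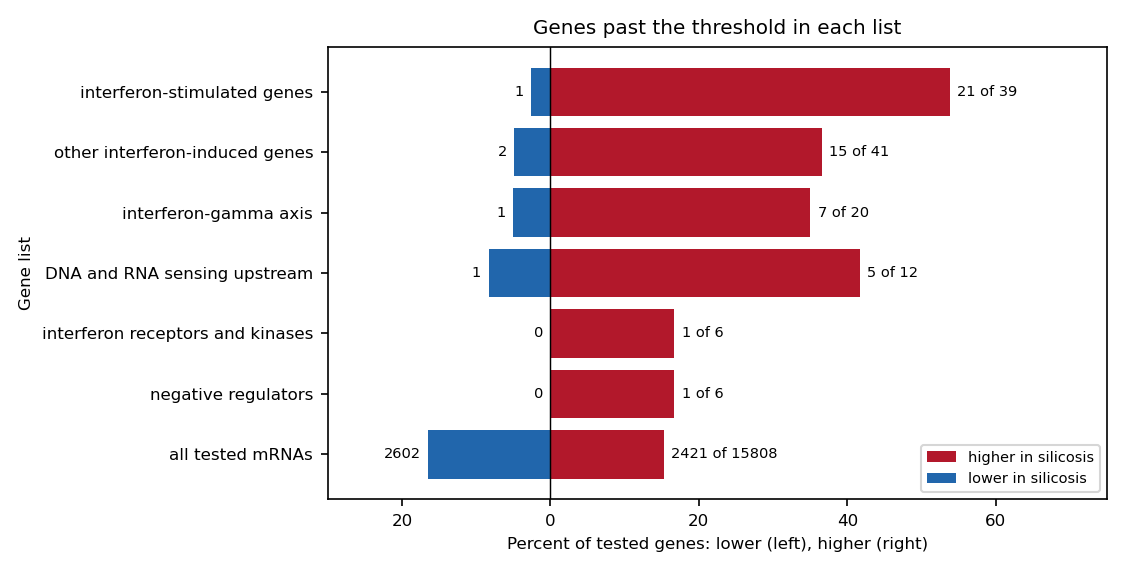
Percent of tested genes higher (right) and lower (left) in silicosis by edgeR at an adjusted p under 0.05, for the 39 genes, 5 related lists and all tested mRNAs, with the number of genes beside each bar. The 39 genes have 21 higher and 1 lower, against 2421 and 2602 of 15808 tested mRNAs.

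Levels can be compared between genes only per length. As CPM per kilobase of exon, Ifitm3 was first in both groups, with 220.1 in silicosis and 249.5 in control. Ifi27l2a (113 in silicosis, 53.3 in control), Ifitm1 (63.3 and 26.5) and Bst2 (49.8 and 48.1) followed in silicosis. Ifitm2, second in control with 73.5, was sixth in silicosis with 34.5. The lowest was Oas1g in both groups, with 3.65 in silicosis and 0.912 in control.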

How the data were processed

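RNA-seq counts of whole mouse lung were compared between 3 silicosis and 3 control libraries, grouped by the treatment in the labels. Trizol RNA and Illumina libraries were used, per the labels' protocols; no source used here names a strand setting or an annotation. Trimmomatic 0.39, featureCounts 2.0.0, DESeq2 1.36.0, HISAT2, Bowtie2 and the build GRCm39 are listed in the submitters' processing notes. The authors deposited raw whole-number counts per gene, not normalised, and a table of their own log2 fold changes with p-values, deposited for the same genes. The circRNA tables were not used because their identifiers name no gene.

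The whole mRNA table was fitted with edgeR 4.0.16 in R 4.3.3 (filterByExpr, TMM, quasi-likelihood F test, Benjamini-Hochberg over 15808 mRNAs, threshold 0.05). The SE is the log2 fold change divided by the square root of F. Ratios between libraries add 0.1 CPM. Libraries of a group were distinct, with chi-square per degree of freedom from 15.4 to 82.2. Exon lengths and shared windows of 50 bases, taken every 5 bases of the longest transcript, come from GENCODE M21 (GRCm38), an earlier build than the authors'; 17553 of 17973 symbols had a length, and only lengths and names were used. Alternatives were DESeq2 size factors, upper-quartile factors, no filter, DESeq2 1.42.0, limma-voom (limma 3.58.1), each library left out, a 2-fold minimum, removing genes with at least 10% of windows shared, and a shorter promoter window. The fits were tested on simulated counts. The 39 genes and all lists were chosen with earlier results of these data known, so no test was made over a list; 1 gene of a related list is not reported here. The rule names every gene of the list and, of each related list, the 3 called genes with the lowest p, or the most expressed where none is called, and each ligand with a count; the count ratios were added after the values were seen. The libraries held 33698920 to 44000748 mRNA counts.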

Additional observations from a re-analysis of the deposited data

How the results depend on the processing

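Under DESeq2 size factors, upper-quartile factors, no filter, DESeq2 and limma-voom, between 19 and 22 of the 39 genes rose, against 12.9% to 17.0% of all mRNAs, 1 fell, and their median log2 fold change was between 0.48 and 0.50. With each library left out, between 15 and 30 rose, 1 fell, and the median lay between 0.42 and 0.63. With a 2-fold minimum 12 rose and 1 fell; without genes that share windows, 18 of 31 rose and 0 fell, because Ifitm2 is left out. The ISRE share was 38.7% in the 250 bases before the start, against 51.6% in the whole window. Signs turned only in genes that did not pass: Ifit2 (0.053 without N138; with a library left out -0.30 to 0.053), Ifit3b (-0.17 without N136; -0.17 to 0.38), Xaf1 (-0.0081 without N136; -0.0081 to 0.19) and Bst2 (-0.00043 by limma-voom, -0.071 without C9, -0.085 without N129, -0.12 without N136; -0.12 to 0.31). The cause of these turns was not tested.

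Of the related lists, receptors and kinases had 0 genes higher with DESeq2 size factors, with no filter and at 2-fold, 2 with upper-quartile factors and with DESeq2, and from 0 to 1 with a library left out. The genes of DNA and RNA sensing had 1 higher and 0 lower at 2-fold, and from 3 to 5 higher and 0 to 1 lower with a library left out. The interferon-gamma axis had 2 higher and 0 lower at 2-fold, 0 lower without genes that share windows, and from 3 to 10 higher and 0 to 2 lower with a library left out. The further interferon-induced genes had 4 higher and 0 lower at 2-fold, 1 lower without genes that share windows, and from 9 to 19 higher and 0 to 2 lower with a library left out. No paired analysis was possible because the groups share no replicate numbers. With 3 libraries a group, a gene that did not pass is not shown to be the same in both groups.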

Other observations

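Dhx58os, the long non-coding RNA on the strand opposite Dhx58, was the single lncRNA named after one of the 39 genes. It had 22, 16 and 11 counts in N129, N136 and N138, against 2, 13 and 10 counts in C7, C8 and C9, and did not pass (log2 fold change 0.88, SE 0.65, edgeR adjusted p = 0.516 over 3320 lncRNAs). Without a stated strand setting, its reads cannot be told apart from those of Dhx58 where both overlap.

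Of the 39 genes, 22 in the authors' deposited table were higher and 1 lower at their adjusted p under 0.05, against 15.4% and 16.6% of the mRNAs with an adjusted p there, and 20 of the 22 were also among the 21 that rose here. For Ifi27l2a the authors' deposited table gives a log2 fold change of 1.08 with an adjusted p of 0.0913.

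Rsad2 and Cmpk2 are adjacent genes, and 16 of the 39 genes have such a neighbour within the list. The Rsad2 to Cmpk2 count ratio was 0.810, 1.13 and 0.822 in N129, N136 and N138, against 0.847, 0.385 and 0.398 in C7, C8 and C9. The groups thus overlapped through C7. The pair was chosen after its values were seen, so the ratio is a description given without a p-value.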
